A study of Mus musculus with 18 samples.

Results

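Dorsal root ganglion explants from C57BL/6J mouse embryos were compared between the end and the start of 22 days in myelination medium. Ganglia were taken at embryonic day 13.5 and kept for 12 days in growth medium on matrigel. The day 0 arrays hold RNA from just before the medium was changed, and the day 22 arrays hold RNA from cultures kept 22 days in myelination medium. No genetic change was made in either group. Each day has 6 arrays, 2 technical arrays from each of 3 batches of ganglia, and the ganglia of each batch were pooled from embryos taken on a separate occasion. These are 12 of the 18 arrays of the study, and the other 6 were made on day 10 and are given beside the results as levels. No culture kept for the same time without myelination medium was part of the design, so time in culture and medium cannot be told apart. All 14542 RefSeq genes with a signal above background were tested, of 20145 RefSeq genes matched to the array. They are described here as transcription factors, receptors, secreted factors and metabolic genes.

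The ganglion explant holds sensory neurons, Schwann cells, satellite glia, fibroblasts and the macrophages of the tissue. Schwann cells first divide along the axons. They then leave the cell cycle and wrap single axons in myelin, a membrane rich in cholesterol and sphingolipids, under factors such as Sox10 and Egr2. Macrophages take up and digest myelin and cell debris through scavenger receptors and complement, and export the cholesterol they release under the control of liver X receptors. Metallothioneins and glutathione enzymes bind metals and detoxify peroxides and foreign compounds.

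A level below is the log2 processed signal of a gene minus the 75th percentile of its array, so that a level of 0 is the signal of that percentile. Levels of different probes are not on a common scale and are not set against each other. A difference is the mean of the 3 batches on day 22 minus that on day 0, in log2 units. The array files and the authors' value table place 12 of the 18 arrays in different batches, although always on the same day. A batch given by number, or left out by number, is that of the array files unless the value table is named. The words rose and fell are used only where limma gave an adjusted p under 0.05 with both placements. Each ± is the larger of the 2 standard errors (n = 3 batches a day), and each adjusted p is the larger of the 2. Most of the values of single arrays are given as the lowest, the median and the highest of 6.

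By that rule 2274 of the 14542 genes rose, 15.6%, and 2859 fell, 19.7%. The median difference over all tested genes was -0.06. At least 2-fold rises were counted for 1221 genes and at least 2-fold falls for 770. With the batches of the array files alone, 21% of the genes were called higher and 27.9% lower. Some genes entered the tests only through the day on which they were above background. Among the 13495 genes that were well above background on all 12 arrays, 14.3% rose and 19.7% fell.

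The 4 classes did not share one direction. Of 458 transcription factors tested, 52 rose and 98 fell, with a median difference of -0.12. Of 398 receptors, 98 rose and 84 fell, with a median of 0.01. Of 376 secreted factors, 143 rose and 35 fell, with a median of 0.63, and of 664 metabolic genes 194 rose and 58 fell, with a median of 0.13. Over genes well above background on all 12 arrays the shares that rose were 9.80%, 20.9%, 34.0% and 28.0% in the same order, and the shares that fell were 21.6%, 21.2%, 8.65% and 8.81%. Set against all such genes, rises were a larger share of the receptors, secreted factors and metabolic genes and a smaller share of the transcription factors. Falls were a smaller share of the secreted factors and metabolic genes. These are counts, and no test of the lists was made.

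**Figure D1:**
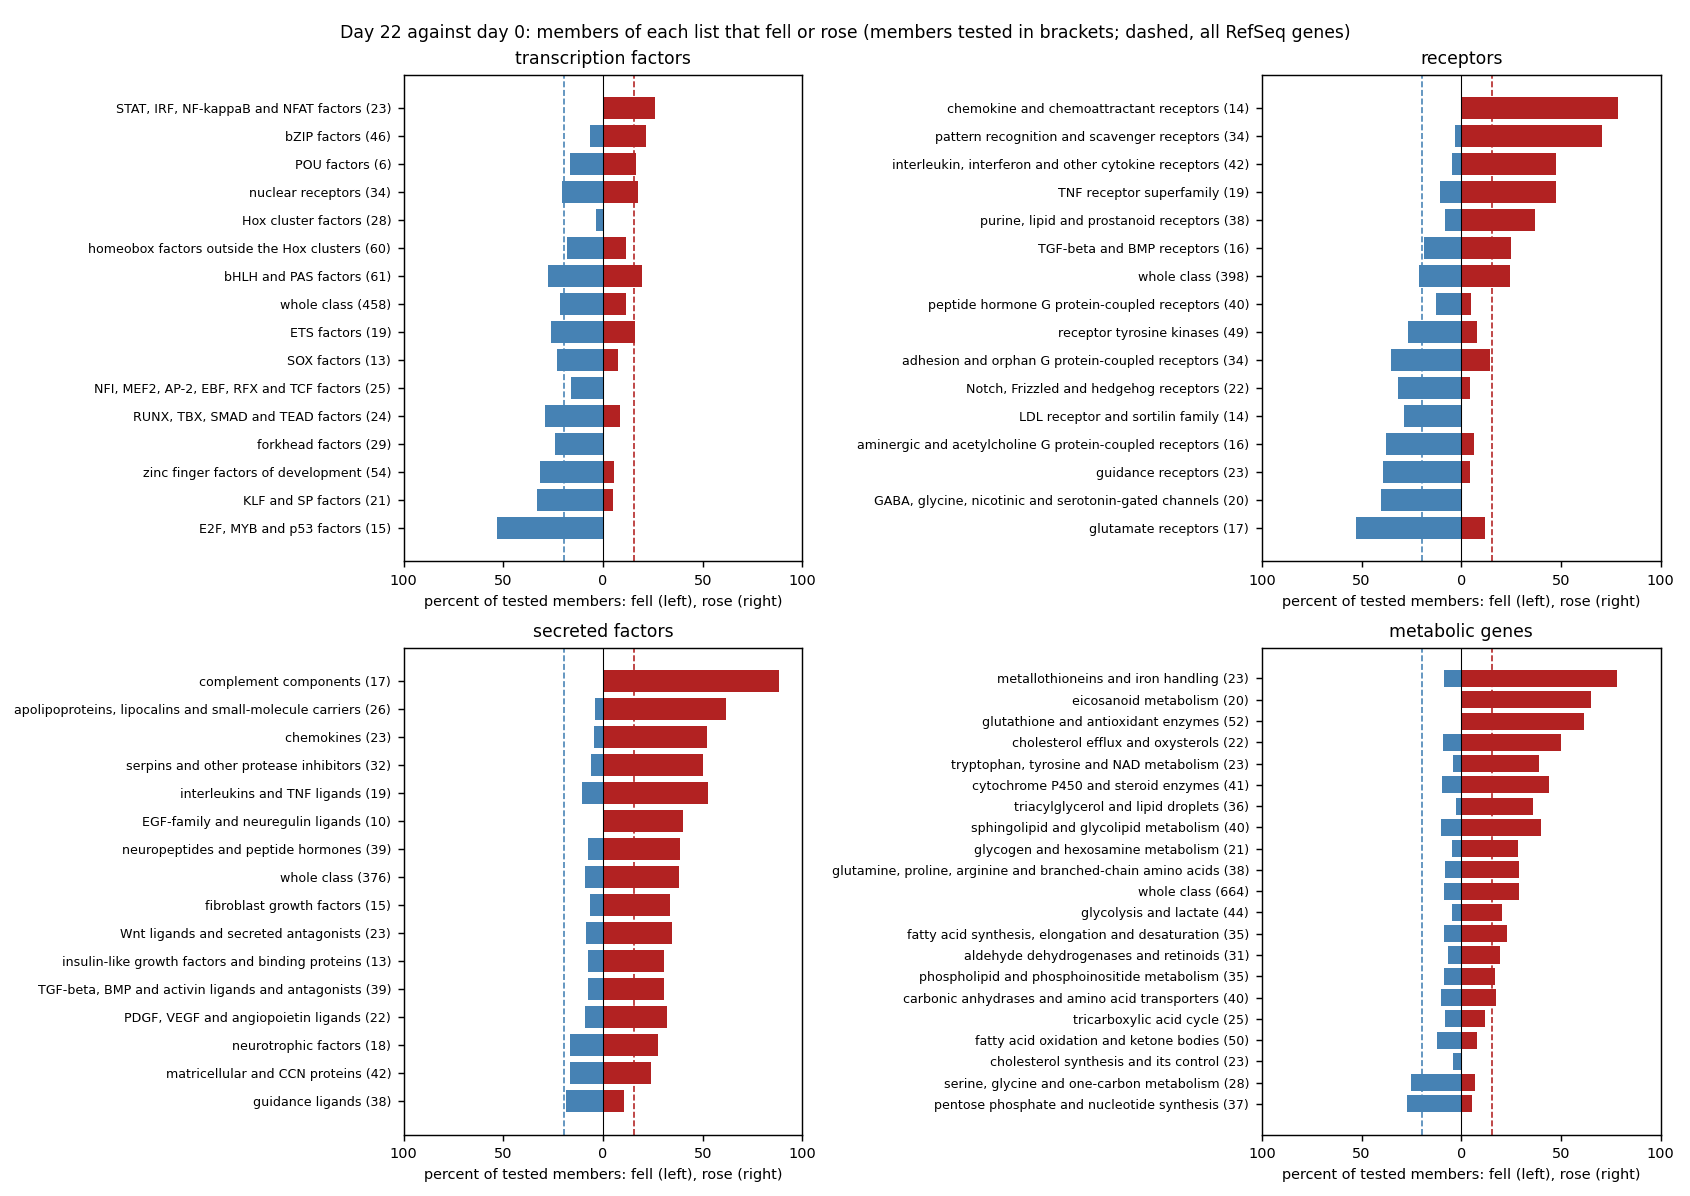
Percent of the tested members of each list that fell (left, blue) and rose (right, red) by day 22, in 4 panels for the 4 classes, with the number tested in brackets. Dashed lines mark the shares over all RefSeq genes, 19.7% lower and 15.6% higher. Complement components reach furthest to the right, with 15 of 17 higher, and among transcription factors the E2F, MYB and p53 factors reach furthest to the left, with 8 of 15 lower.

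Markers of cell types moved between the days. Of 14 macrophage markers 13 were tested, and 11 rose and 0 fell, with a median difference of 3.34. The mean level of these markers on single arrays lay between -0.90 and 0.90 on day 0, between 0.94 and 2.43 on day 10 and between 2.02 and 4.16 on day 22. Of 12 markers of dividing cells 11 were tested and 11 fell, and their mean level lay between 2.18 and 2.64 on day 0 and between -1.46 and 0.29 on day 22. Of 12 sensory neuron markers tested, 0 rose and 1 fell. Of 8 adipocyte markers only Fabp4 was tested, and Adipoq, Plin1, Cidec, Lep, Cfd, Pck1 and Retn were not well above background on all arrays of any day. Of 8 lymphocyte markers 2 were tested and neither passed the test. In RNA of whole explants, fewer cells of a type and less RNA per cell cannot be told apart. The marker lists share members with the 4 classes. These are 6 of the 14 macrophage markers, Csf1r and C1qa among them, 6 of 10 of the Schwann cell lineage and 4 of 12 of sensory neurons. The part of the markers in the results was not tested.

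**Figure D2:**
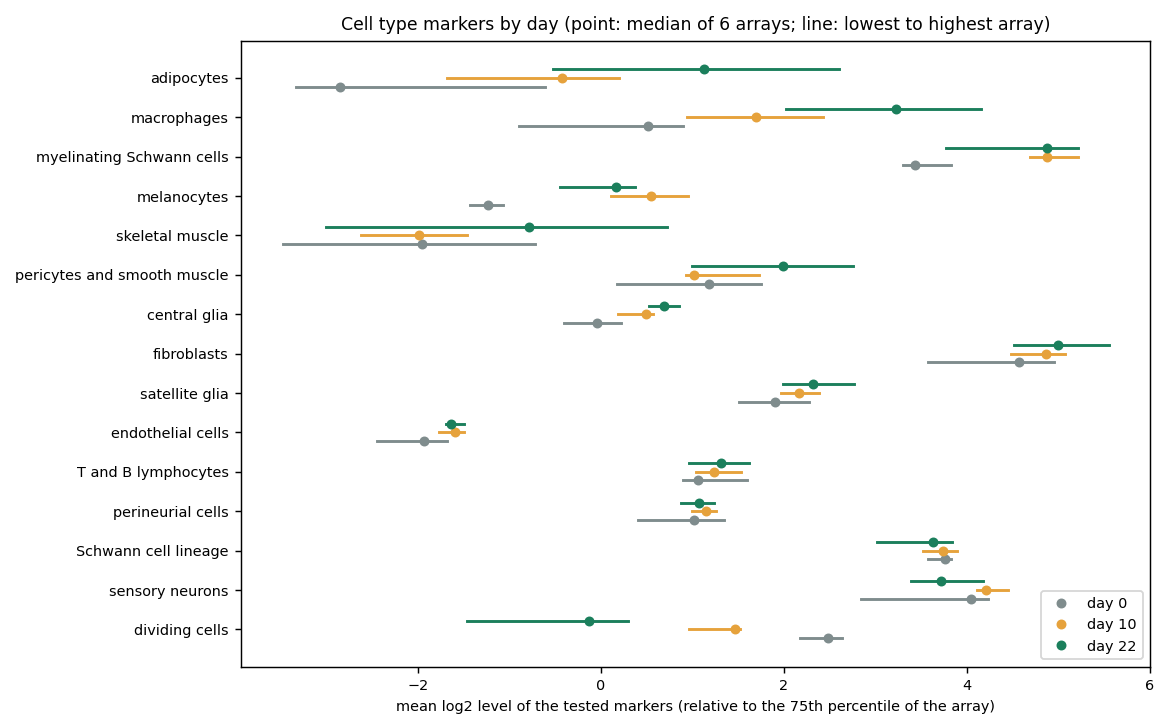
Mean log2 level of the tested markers of each cell type (x axis, as log2 signal minus the 75th percentile of each array) on days 0, 10 and 22, as the median of 6 arrays (point) and their lowest and highest (line). Markers of dividing cells fall from a median of 2.48 on day 0 to -0.13 on day 22, and macrophage markers rise from 0.51 to 3.22. The adipocyte and skeletal muscle rows rest on 1 tested marker each.

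Among the 6 largest rises of all genes, chosen without overlap between the days, were Ccl8, Fcgr2b and Wfdc17, and among the 6 largest falls Ly6h, Islr2, Camkv and Tspan18. Ccl8, a chemokine that attracts monocytes, lay between -4.93 and -2.83 on the 6 arrays of day 0, with a median of -3.34, and between 3.38 and 5.54 on day 22, with a median of 4.14. The difference was 7.88 ± 0.49 (adjusted p = 8.59e-05), or 236-fold. The arrays of the 2 days did not overlap for Ccl8 or for any other gene of this paragraph, as the choice of these genes required. Fcgr2b, the inhibitory receptor for the constant part of antibodies, had medians of -2.28 and 3.03 and a difference of 5.74 ± 0.53. Wfdc17, a small secreted protein of activated macrophages, went from a median of -1.42 to 3.92. At the other end stood Ly6h, a membrane-anchored protein of neurons. It lay between 4.59 and 5.66 on day 0 and between -0.13 and 1.24 on day 22, a difference of -4.56 ± 0.32 (adjusted p = 0.000103). Islr2, a membrane protein of growing sensory axons, had medians of 2.08 and -2.92, with 1 array of day 22 at -1.49 and the other 5 at -2.67 or lower. Camkv, a kinase-like protein of neurons, fell from a median of 2.84 to -1.24. Its difference was -3.93 with all batches and -3.28 without batch 1 of day 22. Tspan18, a tetraspanin, fell from 4.92 to 1.55.

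Among transcription factors, those of the cell cycle fell furthest. E2F factors switch genes of DNA synthesis, and E2f7 and E2f8 are repressors of the family that are themselves made in S phase. E2f7 lay between 0.49 and 1.22 on day 0, with a median of 0.82, at a median of -0.63 on day 10, and between -4.18 and -2.24 on day 22. The difference was -3.68 ± 0.27 (adjusted p = 0.000134), but the other probe of E2f7 gave -0.26. E2f8 lay between 0.26 and 0.81 on day 0 and between -4.71 and -2.35 on day 22, a difference of -3.55 ± 0.31. For both genes the lowest array was array 1 of batch 3 of day 22, which stood apart from the other 5. Mxd3, a partner of Max that is made in S phase, had medians of -0.24 and -3.18. Foxm1, which drives genes of mitosis, had medians of 0.49 and -1.83. The fall was graded within the E2F, MYB and p53 list, of which 8 of 15 tested members fell and 0 rose, with a median difference of -0.54. Mybl2 and E2f2 differed by -2.28 ± 0.15 and -1.98 ± 0.22, and E2f1 and E2f3 by -0.54 ± 0.10 and -0.56 ± 0.11. E2f4, E2f5 and E2f6 differed by -0.28, -0.06 and 0.07 and did not pass the test. Myb was well above background on each array of day 0 and on none of day 22, at least 3.21-fold lower.

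The promoters of the fallen members of that list were read for the E2F site, since these genes fell together. The letters searched on both strands were TTTCCCGC, TTTGCCGC, TTTCGCGC and TTTGGCGC, in the RefSeq window from 250 bases before to 50 bases after each start (build GRCm38.p6). The 8 fallen members have 11 such windows, and 5 of them, 45.5%, hold the site. Of the 32851 windows of all genes 744, or 2.26%, hold it. The 5 windows belong to E2f2, E2f3, E2f7 and Tfdp1, and the pair of windows of Tfdp1 overlap and share 1 site. Of 10 windows of the fallen markers of dividing cells 2 hold it, and of 9 windows of the fallen genes of nucleotide synthesis 0 do. Of the windows of the members that did not fall, 0 of 6 hold it in the E2F, MYB and p53 list and 2 of 30 in the nucleotide list. A match describes these letters only. Capitals mark the site, which reads on the minus strand in both windows printed here. The first is chr10:110745189-110745488 (plus strand) and the second chr13:29986014-29986313 (minus strand):
E2f7: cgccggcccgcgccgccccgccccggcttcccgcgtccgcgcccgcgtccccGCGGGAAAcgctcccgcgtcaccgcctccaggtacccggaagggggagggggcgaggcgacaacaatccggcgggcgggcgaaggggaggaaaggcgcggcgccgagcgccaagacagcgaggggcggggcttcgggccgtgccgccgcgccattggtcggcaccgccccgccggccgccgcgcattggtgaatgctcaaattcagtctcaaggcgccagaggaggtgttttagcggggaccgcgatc
E2f3: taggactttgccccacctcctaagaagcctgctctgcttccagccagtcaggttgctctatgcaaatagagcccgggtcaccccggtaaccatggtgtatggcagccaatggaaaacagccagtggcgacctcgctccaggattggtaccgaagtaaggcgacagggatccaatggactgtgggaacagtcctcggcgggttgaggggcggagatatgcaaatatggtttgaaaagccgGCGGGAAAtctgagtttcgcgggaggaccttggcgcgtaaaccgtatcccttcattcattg

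Several lists of developmental factors held more falls than rises, although most members did not pass the test. Of 54 zinc finger factors of development 17 fell and 3 rose, with a median of -0.33. Prdm8, a repressor of neural development, lay between 0.31 and 0.79 on day 0 and between -1.62 and -1.14 on day 22, a difference of -1.97 ± 0.17 (adjusted p = 0.000202). Bcl11b, a repressor that shapes neuronal subtypes, differed by -1.52 ± 0.30, and Gli3, which carries hedgehog signals, by -1.56 ± 0.35. Of 61 basic helix-loop-helix and PAS factors 17 fell and 12 rose. Among the falls were the Notch targets Hes5, at -2.16 ± 0.30, and Heyl, at -2.28, and Mycn, a growth factor-driven proto-oncogene, at -1.76 ± 0.33. Sox3, a factor of neural precursors, had medians of 0.26 and -2.0. Of 29 forkhead factors 7 fell and 0 rose, of 21 KLF and SP factors 7 fell and 1 rose, and of the 60 homeobox factors outside the Hox clusters 11 fell and 7 rose. The share of falls was 24.1% in the forkhead list and 18.3% in the homeobox list, near the 19.7% of all genes. Pou4f2, a factor of sensory neurons, lay between -3.03 and -2.08 on day 0, and only 2 arrays of day 22 were well above background. Of the 28 Hox factors tested 1 fell, Hoxb3, at -0.49 ± 0.15, and with batch number as a block its adjusted p was 0.0587. Its other probe gave -0.14.

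Rises among transcription factors were fewer and were spread over the lists. Of 61 basic helix-loop-helix and PAS factors 12 rose, of 46 bZIP factors 10 and of 60 homeobox factors outside the Hox clusters 7. These shares were 19.7%, 21.7% and 11.7%, where 15.6% of all genes rose. Among members well above background on all 12 arrays they were 14.5%, 20.5% and 8%, where 14.3% of all such genes rose. The STAT, IRF, NF-kappaB and NFAT factors, which carry cytokine and interferon signals, had 6 rises and 0 falls among 23. Irf8, which macrophage precursors need, lay between -2.96 and -1.29 on day 0, at a median of -0.60 on day 10, and between -0.23 and 2.58 on day 22. The difference was 3.15 ± 0.59 (adjusted p = 0.00574). Irf5, which drives inflammatory cytokines, differed by 3.28 ± 0.54, and Irf7, which drives type I interferon, by 2.15 ± 0.40. Lyl1, a factor of blood cells, had medians of -0.80 and 2.35. Cebpa, a factor of granulocytes and macrophages, differed by 1.31 ± 0.26. Spi1, the master factor of myeloid cells, was well above background on 3 arrays of day 0 and on all 6 of day 22, where it lay between -3.88 and -1.43 (adjusted p = 0.00667). Tfec, a factor made in macrophages, was not well above background on any array of day 0 and was at least 6.31-fold higher on day 22. These rises stand beside the macrophage markers given above, whose mean level rose on the same arrays, and their part was not tested.

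Nuclear receptors, which are transcription factors switched by lipids and hormones, moved both ways, 6 up and 7 down of 34. These shares, 17.6% and 20.6%, were near the 15.6% and 19.7% of all genes. Nr1h4, the bile acid receptor, led the whole class. It lay between -4.77 and -2.92 on day 0, at a median of -0.38 on day 10, and between -1.56 and 0.21 on day 22. The difference was 3.65 ± 0.37 (adjusted p = 0.000377), or 12.5-fold. Nr1h3, the liver X receptor alpha, went from between -1.68 and -0.67 to between 0.32 and 1.06, a difference of 2.11 ± 0.31. Vdr, the vitamin D receptor, differed by 2.60 ± 0.56, and Pparg, which drives fat storage and is also made in macrophages, by 1.03 ± 0.21. The 6 arrays of one day did not overlap the 6 of the other for any of these 4 genes. The falls were smaller. Nr2f1, an orphan receptor of neural development, lay between 5.08 and 5.47 on day 0 and between 4.27 and 4.59 on day 22, and differed by -0.91 ± 0.09 (adjusted p = 0.000343). Nr4a1, an immediate early gene, differed by -0.84 ± 0.21.

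**Figure D3:**
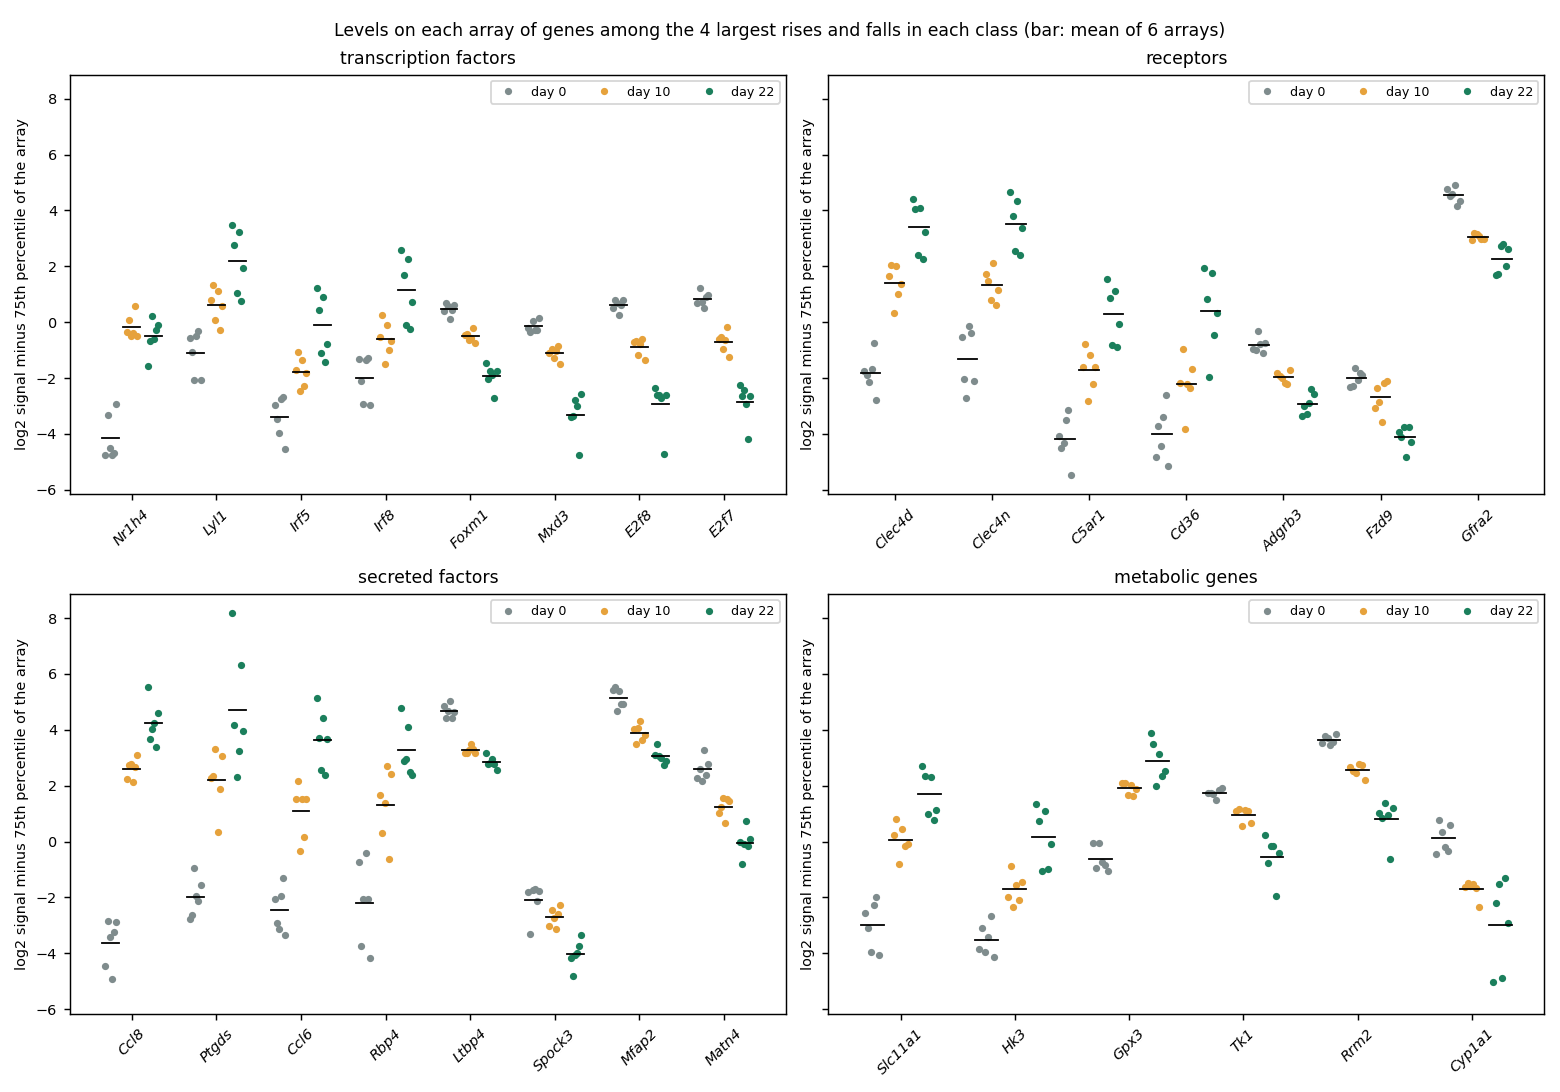
Levels (y axis, log2 signal minus the 75th percentile of the array) of genes among the 4 largest rises and 4 largest falls in each of the 4 classes, on 6 arrays each of days 0, 10 and 22 (points) with their mean (bar). The 6 points of day 22 lie on one side of the 6 points of day 0 for each of these genes, which was a condition of the choice. Nr1h4 has a median of -0.38 on day 10 and -0.45 on day 22, while Ccl8 has 2.70 and 4.14.

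Receptors of immune recognition rose. Of 34 pattern recognition and scavenger receptors tested 24 rose and 1 fell, with a median difference of 2.26. Clec4d, a lectin receptor for fungal and mycobacterial sugars, lay between -2.77 and -0.76 on day 0, with a median of -1.81, at 1.5 on day 10, and between 2.25 and 4.41 on day 22. The difference was 5.23 ± 0.43 (adjusted p = 0.000192), or 37.6-fold. Its relative Clec4n had medians of -1.28 and 3.58. Cd36, a receptor for oxidized lipoproteins and long-chain fatty acids, lay between -5.15 and -2.60 on day 0 and between -1.95 and 1.93 on day 22, a difference of 4.43 ± 0.67. Trem2, a lipid receptor of macrophages, differed by 3.31 ± 0.53. Tlr2 and Tlr4, sensors of bacterial lipoproteins and lipopolysaccharide, differed by 3.16 ± 0.66 and 2.58 ± 0.33. Scarb1, which takes up cholesterol esters from high-density lipoprotein, was the member that fell, at -0.74 ± 0.19. Clec4 genes are close relatives, so that 1 transcript may bind the probe of another. Of the 13 macrophage markers tested 11 rose on the same arrays, and their part was not tested.

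Receptors of chemoattractants and cytokines followed. Of 14 chemokine and chemoattractant receptors 11 rose and 0 fell. C5ar1, the receptor of the complement fragment C5a, lay between -5.48 and -3.13 on day 0 and between -0.88 and 1.54 on day 22, a difference of 4.47 ± 0.49 (adjusted p = 0.000531). Of 42 cytokine receptors 20 rose and 2 fell. Il7r was not well above background on any array of day 0 and was at least 8.38-fold higher on day 22. Il4ra, which receives interleukins 4 and 13, had medians of -1.77 and 0.64. Csf1r, the receptor that macrophages need to survive, lay between 1.62 and 3.49 on day 0 and between 4.10 and 6.59 on day 22, a difference of 2.59 ± 0.58, with probes from 0.72 to 2.69. Both of its ligands rose too. Il34 differed by 1.26 ± 0.17 and Csf1 by 0.86 ± 0.13. Among receptors for purines and lipids 14 of 38 rose and 3 fell. Of the 29 that were well above background on all 12 arrays 6 rose, 20.7%, where 14.3% of all such genes rose. P2ry6, which senses uridine diphosphate, differed by 3.38 ± 0.49, and S1pr1, a receptor of sphingosine phosphate, by 2.5 ± 0.44. Htr2b, a serotonin receptor, was well above background on 2 arrays of day 0 and lay between -0.81 and 1.46 on day 22 (adjusted p = 0.000489).

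Receptors of neurotransmitters, growth factors and axon guidance fell more often than they rose. So did all tested genes, 19.7% against 15.6%. Of 17 glutamate receptors 9 fell, 52.9%, and 2 rose, with a median of -0.77. Of 20 GABA, glycine, nicotinic and serotonin-gated channels 8 fell, 40%, and 0 rose. Gabbr2, a subunit of the metabotropic GABA receptor, lay between -1.73 and -0.54 on day 0 and between -3.17 and -1.94 on day 22, and differed by -1.43 ± 0.22 (adjusted p = 0.00227), with probes from -1.43 to -0.39. Gria1 was a glutamate receptor that rose, by 1.56 ± 0.28. Chrm2, a muscarinic receptor, lay between -3.27 and -1.83 on day 0, and 1 array of day 22 was well above background (adjusted p = 0.000103). Of 23 guidance receptors 9 fell, 39.1%, and 1 rose, and Plxna2 differed by -1.35 ± 0.27. Of 49 receptor tyrosine kinases 13 fell, 26.5%, and 4 rose. Among those well above background on all 12 arrays 23.4% fell, near the 19.7% of all such genes. Gfra2 is a co-receptor of neurturin and has no kinase of its own. It lay between 4.17 and 4.91 on day 0, at a median of 3.03 on day 10, and between 1.69 and 2.78 on day 22. The difference was -2.29 ± 0.24 (adjusted p = 0.000246). Its relative Gfra1, a co-receptor of GDNF, went the other way, by 1.53. Over the same days the mean level of the sensory neuron markers lay between 2.84 and 4.23 on day 0 and between 3.39 and 4.18 on day 22, and its part in these falls was not tested.

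Some receptors that Schwann cells and other glia make were among the falls. Of the 10 markers of the Schwann cell lineage 1 rose and 3 fell, and their mean level had a median of 3.76 on day 0 and 3.63 on day 22. Erbb3 and Ngfr, given below, are themselves among these markers, so the markers are not a separate measure. Gpr17, a receptor of immature glia, lay between -2.37 and -0.19 on day 0, at a median of -5.68 on day 10, and was not well above background on any array of day 22. It was at least 18-fold lower (adjusted p = 7.86e-05). Erbb3, the neuregulin receptor, lay between -1.21 and -0.62 on day 0 and between -2.91 and -1.40 on day 22, and differed by -0.93 ± 0.26. Ngfr, the low-affinity neurotrophin receptor of immature Schwann cells, lay between 6.91 and 7.34 and then between 5.86 and 6.49, a difference of -0.92 ± 0.20 (adjusted p = 0.0108). Adgrg6, an adhesion receptor that Schwann cells need to start myelination, differed by -0.79 ± 0.14, and Ednrb, an endothelin receptor, by -1.46 ± 0.29. For these 5 receptors the arrays of the 2 days did not overlap. Adgrb3, a synaptic adhesion receptor, had medians of -0.86 and -2.96, and Fzd9, a Wnt receptor, -1.97 and -4.03.

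The secreted factors that rose were first of all complement. Of 17 complement components tested 15 rose and 0 fell, each by at least 2-fold, with a median difference of 3.01. C4b, which marks surfaces for uptake, lay between -0.57 and 1.95 on day 0, at a median of 3.85 on day 10, and between 4.64 and 5.46 on day 22. The difference was 4.29 ± 0.38 (adjusted p = 0.00025). C1qa, a chain of the C1q trigger of the pathway, differed by 3.44 ± 0.57, and C3, its central component, by 3.11 ± 0.42, with probes of C3 at 1.88 and 3.11. Mbl2, a circulating lectin, was well above background on 1 array of day 0 and lay between -0.20 and 0.87 on day 22. C8g and Hc were the tested members that did not pass, at -0.22 and 0.93. C1qa is also a macrophage marker here. Of 23 chemokines 12 rose and 1 fell. Ccl6, a macrophage chemokine, lay between -3.36 and -1.30 on day 0 and between 2.40 and 5.14 on day 22, a difference of 6.10 ± 0.52. Cxcl5, which draws neutrophils, differed by 4.92 ± 0.79.

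Carriers of lipids and acute phase proteins rose next, 16 of 26 with 1 fall. Ptgds makes prostaglandin D2 and also circulates as a carrier of small lipids. It lay between -2.78 and -0.93 on day 0, at a median of 2.31 on day 10, and between 2.33 and 8.18 on day 22. The difference was 6.69 ± 0.76 (adjusted p = 0.000473). Its arrays of day 22 were spread widely, and without batch 1 of day 22 the difference was 5.95, without batch 2 7.65. Rbp4, the retinol carrier, had medians of -2.06 and 2.93. Lcn2, an iron-scavenging lipocalin of the acute phase, lay between -2.05 and -1.29 and then between 1.18 and 2.81, a difference of 3.63 ± 0.52. Fgb, the beta chain of fibrinogen, was not well above background on any array of day 0 and lay between 1.56 and 4.35 on day 22, at least 392-fold higher. Lpl, which frees fatty acids from lipoproteins, differed by 3.12 ± 0.69, with an overlap between the arrays of the 2 days. Rbp4, Lpl and Ptgds stand beside the single adipocyte marker tested, Fabp4. It lay between -3.34 and -0.61 on day 0 and between -0.52 and 2.60 on day 22, and its part was not tested.

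In most other secreted lists rises outnumbered falls, with 16 rises and 2 falls among 32 serpins and other protease inhibitors and 10 and 2 among 19 interleukins and TNF ligands. Of the 10 interleukins and TNF ligands well above background on all 12 arrays 4 rose and 2 fell. Igfbp5, a binding protein of insulin-like growth factors, lay between 0.93 and 2.85 on day 0 and between 4.54 and 6.60 on day 22, a difference of 3.60 ± 0.73 (adjusted p = 0.00785), and Igf1 itself differed by 2.95 ± 0.58. Among Wnt genes the secreted antagonists led, with Dkk3 at 3.90 ± 0.33 and Sfrp4 at 4.89 ± 0.91, or 4.13 without batch 1 of day 22. Grem1, a BMP antagonist, was well above background on 2 arrays of day 0 and lay between -2.04 and 1.65 on day 22 (adjusted p = 0.00105). Fgf7 and Fgf10, growth factors of connective tissue that act on epithelia, differed by 2.60 ± 0.45 and 4.11 ± 0.61. Spp1, the matrix and cytokine protein osteopontin, had medians of 1.78 and 6.06, and Timp1, an inhibitor of matrix proteases, 3.01 and 5.49. Of 39 neuropeptides and peptide hormones 15 rose and 3 fell. The peptide precursors Penk and Gal differed by 2.59 ± 0.47 and 1.1 ± 0.33, and Chga, a protein of secretory granules, by -1.47 ± 0.23.

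Fewer secreted factors fell, 35 of 376. Of 38 guidance ligands 7 fell and 4 rose, of 42 matricellular proteins 7 fell and 10 rose, and of 18 neurotrophic factors 3 fell and 5 rose. The shares that fell, 18.4%, 16.7% and 16.7%, were below the 19.7% of all genes. Matn4, a matrix adaptor, lay between 2.18 and 3.28 on day 0, at a median of 1.35 on day 10, and between -0.79 and 0.74 on day 22, a difference of -2.62 ± 0.24 (adjusted p = 0.000266). Mfap2, a microfibril protein, had medians of 5.17 and 3.04 and differed by -2.10 ± 0.19. Ltbp4, which stores latent TGF-beta in the matrix, lay between 4.42 and 5.04 and then between 2.55 and 3.17, a difference of -1.84 ± 0.15. Fbn2, the fibrillin of embryonic tissue, differed by -2.61 ± 0.56, and Serpinh1, the collagen chaperone, by -0.86 ± 0.10. Of the 9 fibroblast markers tested 2 rose and 3 fell. Ntf3, neurotrophin 3, lay between -0.76 and 1.14 on day 0 and between -6.30 and -1.77 on day 22, with 5 of 6 arrays of day 22 well above background. Its difference was -3.57 ± 0.69 (adjusted p = 0.0063), or -2.72 without batch 1 of day 22. The arrays of the 2 days did not overlap.

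Metabolic rises were frequent in metal handling and in the defence against peroxides. Of 23 metallothionein and iron genes tested 18 rose and 2 fell, and of 52 glutathione and antioxidant enzymes 32 rose and 0 fell, with medians of 1.20 and 0.67. Mt2, a metallothionein that binds zinc and copper, lay between 4.54 and 6.10 on day 0, at a median of 6.99 on day 10, and between 7.06 and 8.12 on day 22. The difference was 2.31 ± 0.33 (adjusted p = 0.00184), or 4.96-fold. Mt1 lay between 6.26 and 7.35 and then between 7.64 and 8.33, a difference of 1.16 ± 0.26. The metallothioneins are close copies of each other, so that their probes may share transcripts. Fth1, the heavy chain of the iron store ferritin, differed by 0.90 ± 0.09, and Slc40a1, the iron exporter, by 2.18 ± 0.36. Slc11a1, a metal pump of macrophage phagosomes, lay between -4.06 and -1.99 and then between 0.79 and 2.69, a difference of 4.70 ± 0.50. Tfrc, the receptor that brings iron in, fell, at -0.70 ± 0.18, and Slc30a1, a zinc exporter, at -0.42 ± 0.13. The macrophage markers rose on the same arrays, and their part was not tested.

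Metallothionein promoters carry metal response elements, so the windows of Mt1 and Mt2 are shown. The letters searched on both strands were TGCACNC and TGCGCNC in the same RefSeq windows (build GRCm38.p6). Of 24 windows of the members of the metal and iron list that rose 9, or 37.5%, hold a match, and of all 32851 windows 8444, or 25.7%, do. Of the 5 windows of the tested members that did not rise 2, or 40%, hold one. Mt1 has 3 matches, all on the plus strand, from 23 bases before the start onward, and Mt2 has 4. Capitals mark the matches. Mt1 is at chr8:94178839-94179138 and Mt2 at chr8:94172368-94172667, both on the plus strand:
Mt1: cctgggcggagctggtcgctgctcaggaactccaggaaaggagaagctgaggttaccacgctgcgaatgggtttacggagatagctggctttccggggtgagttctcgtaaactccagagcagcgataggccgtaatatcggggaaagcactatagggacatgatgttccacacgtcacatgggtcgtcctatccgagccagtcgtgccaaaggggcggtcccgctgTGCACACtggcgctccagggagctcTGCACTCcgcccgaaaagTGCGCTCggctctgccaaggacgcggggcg
Mt2: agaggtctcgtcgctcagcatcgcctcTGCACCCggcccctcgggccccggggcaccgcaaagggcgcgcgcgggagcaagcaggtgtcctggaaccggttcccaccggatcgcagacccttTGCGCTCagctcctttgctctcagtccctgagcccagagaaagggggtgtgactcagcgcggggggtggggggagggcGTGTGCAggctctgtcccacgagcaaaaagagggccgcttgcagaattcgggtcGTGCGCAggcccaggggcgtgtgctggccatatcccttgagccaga

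The glutathione enzymes rose in several families. Gpx3, the secreted glutathione peroxidase, lay between -1.05 and -0.04 on day 0, at a median of 1.96 on day 10, and between 1.99 and 3.87 on day 22, a difference of 3.51 ± 0.31 (adjusted p = 0.000184). Mgst1, a membrane-bound glutathione transferase, lay between 0.40 and 0.93 and then between 2.63 and 3.25, a difference of 2.20 ± 0.13 (adjusted p = 7.59e-05). Slc7a11, which imports the cystine that glutathione is made from, differed by 2.63 ± 0.46, and Hmox1, which breaks down haem, by 1.46 ± 0.19. Nqo1, a quinone reductase, differed by 1.58 ± 0.43, and its arrays overlapped between the days. The superoxide dismutases Sod1, Sod2 and Sod3 differed by -0.01, -0.02 and 0.61 and did not pass the test, nor did catalase (Cat) at -0.56. Nfe2l2, the factor that switches many of these genes, differed by 0.39 ± 0.09, and Bach1, a repressor of the same genes, by -0.66 ± 0.17. The antioxidant response element TGACNNNGC, searched on both strands, lay in 5 of 39 RefSeq windows of the members that rose, 12.8%, in 4 of 22 windows of the members that did not rise, 18.2%, and in 12.4% of all windows. Many glutathione transferases are close copies, and their probes may share transcripts.

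**Figure D4:**
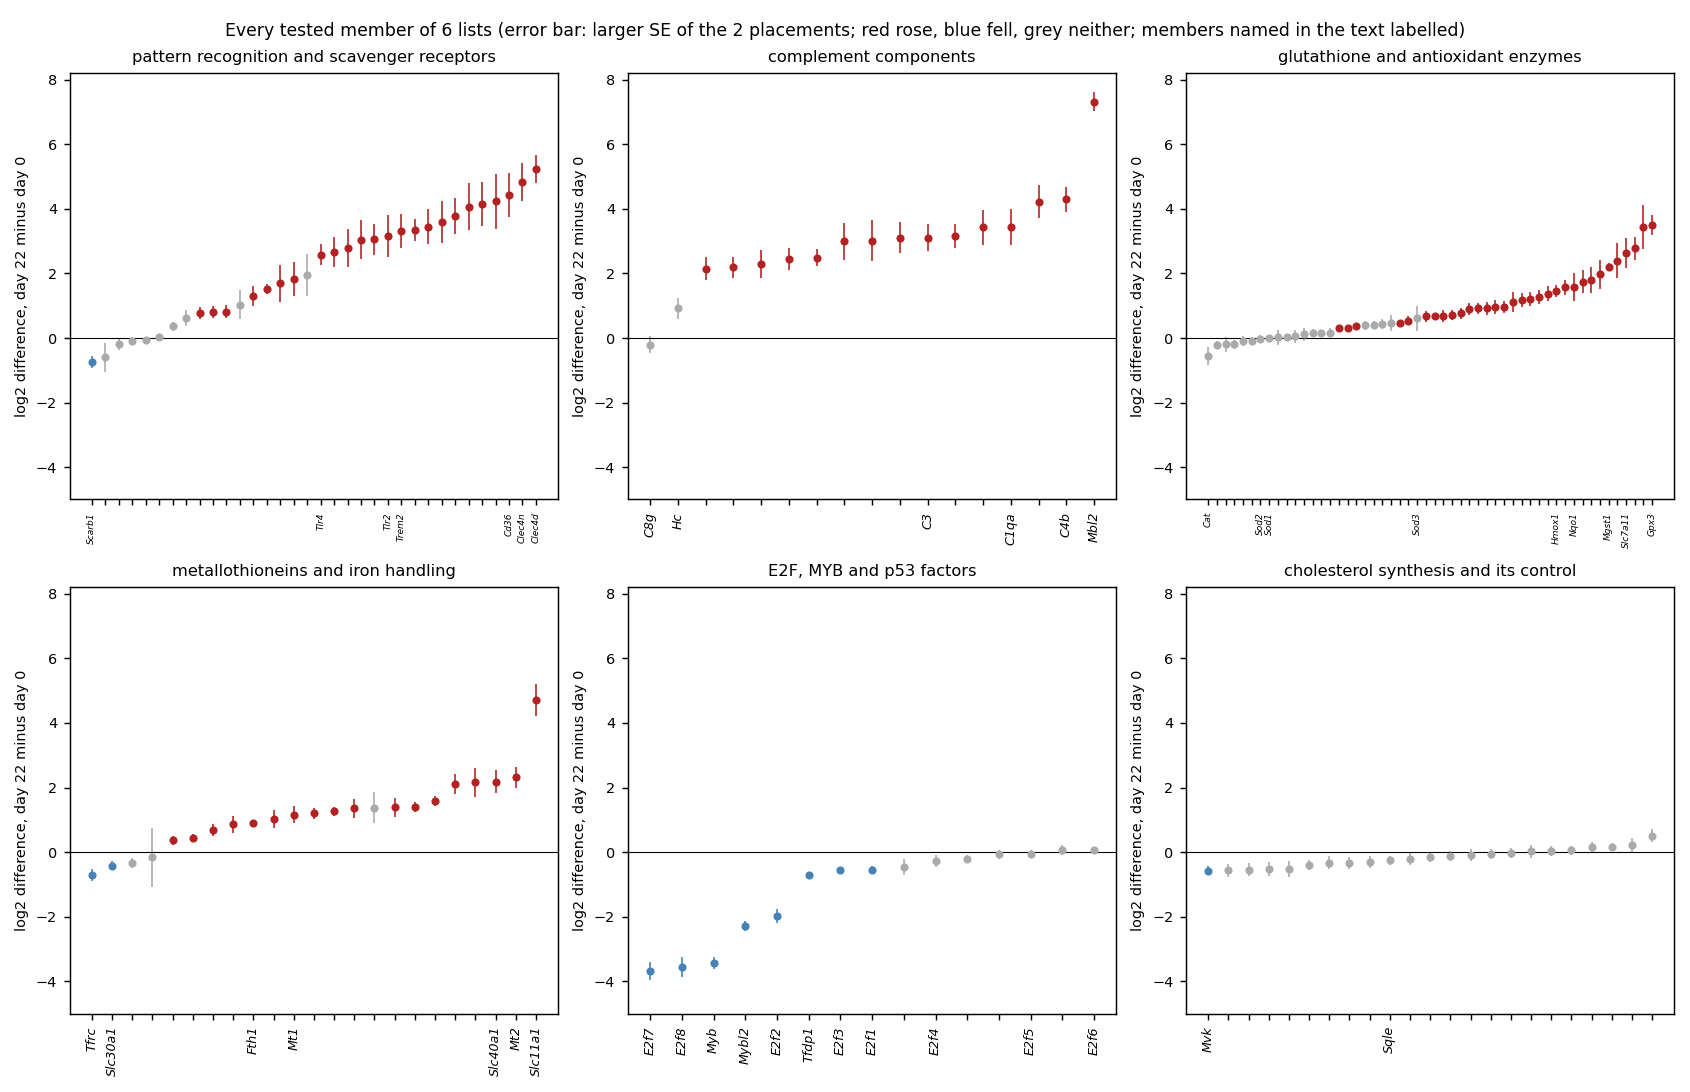
Log2 difference of day 22 minus day 0 (y axis) of every tested member of 6 lists, ordered by difference, with the larger standard error of the 2 placements as bar. Members named in the text are labelled. Red members rose, blue members fell and grey members did neither. The complement panel has 15 red points of 17, the antioxidant panel 32 of 52 with no blue point, and the cholesterol synthesis panel 1 blue point of 23.

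The lists of lipid metabolism differed in their counts. Over all tested genes 15.6% rose and 19.7% fell. Of 35 genes of fatty acid synthesis, elongation and desaturation 8 rose, 22.9%, and 3 fell, 8.57%. Of 50 genes of fatty acid oxidation 4 rose, 8%, and 6 fell, 12%. Of 22 genes of cholesterol efflux and oxysterols 11 rose, 50%, and 2 fell, 9.09%. Abca1, the cholesterol exporter that liver X receptors switch on, lay between 1.98 and 3.03 on day 0 and between 3.12 and 3.76 on day 22, a difference of 0.86 ± 0.20 (adjusted p = 0.014). Ch25h, which makes an oxysterol, was well above background on 1 array of day 0 and on all 6 of day 22, where it lay between -3.14 and -0.48 (adjusted p = 0.00324). Of 23 genes of cholesterol synthesis 0 rose and 1 fell, the mevalonate kinase gene Mvk, at -0.58 ± 0.14. Sqle, which oxidizes squalene on the way to the sterol ring, differed by -0.26 and did not pass the test. Of 36 genes of triacylglycerol and lipid droplets 13 rose and 1 fell, among them Plin2, a droplet coat protein, at 1.18 ± 0.16. Of 40 sphingolipid genes 16 rose and 4 fell. The rises took in Psap, the precursor of the lysosomal saposins, at 0.76 ± 0.15. Fa2h, which makes the hydroxylated fatty acids of myelin, differed by 1.49 ± 0.39, while Gal3st1, which makes the myelin lipid sulfatide, fell, at -0.68 ± 0.16.

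Eicosanoid and foreign-compound enzymes rose more often than they fell. Of 20 eicosanoid genes 13 rose and 0 fell. Ptgs1, the constitutive cyclooxygenase, lay between -2.65 and -0.86 on day 0 and between 1.27 and 2.73 on day 22, a difference of 3.35 ± 0.44 (adjusted p = 0.00116). Alox5ap, which leukotriene synthesis needs, differed by 3.00 ± 0.46. Of 41 P450 and steroid genes 18 rose and 4 fell. Xdh, the xanthine oxidoreductase, was not well above background on any array of day 0 and was at least 56-fold higher on day 22. Cyp1a1, the classic target of the aryl hydrocarbon receptor, went the other way, from between -0.43 and 0.77 to between -5.03 and -1.29, a difference of -3.10 ± 0.73 (adjusted p = 0.0142). The receptor, Ahr, differed by -0.87 ± 0.20, and Cyp1b1, another of its targets, by 1.48 ± 0.45.

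Rrm2, a subunit of the reductase that makes deoxynucleotides, lay between 3.47 and 3.86 on day 0, at a median of 2.58 on day 10, and between -0.63 and 1.39 on day 22. The difference was -2.84 ± 0.28 (adjusted p = 0.000325). Tk1, which makes thymidine nucleotides by salvage, had medians of 1.74 on day 0 and -0.30 on day 22. In all 10 of 37 nucleotide and pentose phosphate genes fell, 27%, and 2 rose. Of 28 serine, glycine and one-carbon genes 7 fell, 25%, and 2 rose, where 19.7% of all genes fell. Among the falls were Phgdh, the entry to serine synthesis, at -1.09 ± 0.19 and Mthfd2, a mitochondrial folate enzyme, at -1.14 ± 0.22. Aldh1l1, another folate enzyme, rose by 2.51 ± 0.20. The markers of dividing cells fell on the same arrays, 11 of 11 tested, and their part was not tested. In central carbon metabolism falls were a smaller share than the 19.7% of all genes. Of 44 genes of glycolysis and lactate 9 rose, 20.5%, and 2 fell, 4.55%. Of 25 genes of the tricarboxylic acid cycle 3 rose, 12%, and 2 fell, 8%. The share of all genes that rose was 15.6%. The falls were of less than 2-fold in both lists. Of the glycolytic rises Hk3, a hexokinase of blood cells, was the largest, from between -4.13 and -2.65 to between -1.04 and 1.33. Pck2 fell at -0.72 ± 0.22, and with batch number as a block its adjusted p was 0.0653.

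The genes of myelin itself are set beside these for comparison. Of 12 markers of myelinating Schwann cells 6 rose and 0 fell, with a median difference of 0.64. Ncmap, a membrane protein of noncompact myelin, lay between -0.83 and 1.67 on day 0 and at a median of 5.52 on day 10. On day 22 it lay between 4.09 and 6.29, a difference of 5.06 ± 0.59 (adjusted p = 0.000663). Drp2, which links the Schwann cell to its basal lamina, differed by 3.27 ± 0.29, and Pmp22 by 0.84 ± 0.16. Egr2, which drives the myelin genes, differed by -0.29 ± 0.65 (adjusted p = 0.764), with arrays from 2.20 to 4.75 on day 0 and from 1.88 to 3.82 on day 22. Sox10 differed by -0.62 ± 0.21 (adjusted p = 0.0503), and with batch number as a block its adjusted p was 0.0158 at most. Mbp, the basic protein of myelin, differed by 1.41 ± 0.19 at its brightest probe, but its probes ranged from -1.41 to 1.41, and the mean of them gave -0.41. Jun, a factor of immature and injured Schwann cells, differed by -0.06 ± 0.19, and the neuronal tubulin Tubb3 by 0.23 ± 0.19, and neither passed the test.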

How the data were processed

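Total RNA of each sample was labelled with Cy3 and hybridised to a one-colour Agilent mouse array, per the labels. The authors' spot intensity, per the file headers, is the background-subtracted output of Feature Extraction 10.7.1.1, given as version 10.7.1 in the submitters' processing notes, and the flags of 0 and 1 come from the same software. A value table that the authors deposited beside these files holds intensity on a linear scale, with columns of one shared distribution and steps not given in the sources used here.

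Levels are log2 of the deposited processed intensity, from which each array's 75th percentile was subtracted. Spots flagged as outliers and controls were left out. Of 55681 probes, 30431 were kept, those that every one of the 6 arrays of some day had well above background. Probes were named through accessions listed for RefSeq genes (GRCm38.p6), and the brightest probe stood for each gene with several. Each batch and day entered as the mean of its 2 arrays, and limma 3.58.1 (lmFit and eBayes in R 4.3.3) was fitted to the 9 values of the 3 days. P-values were adjusted by the Benjamini-Hochberg method over all 22854 features, with a threshold of 0.05. The fit was checked on simulated data.

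Of its 18 columns, 12 hold the values found in the file of another sample of the same day, so the fit was made with both placements of arrays in batches. Per the labels the batches are separate pools of embryos, and the batch numbers recur on all days. Batch values of the same number deviated together on different days in 6 of 9 pairs of days by the array files' placement and in 8 of 9 by the value table's, at a correlation above 0.1. The 2 arrays of a batch did so in 1 of 9 and 6 of 9 cases. The median SD between batch values was 0.15 and 0.19 with the 2 placements.

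"At least N-fold" sets the mean of the brighter day against the lowest signal well above background on each array of the other day, or the gene's own signal there where higher. The members, the 65 lists, the 15 marker lists and the rule for named genes were chosen with earlier results of these data known. By that rule the text could name, per class, the 4 largest rises and falls well above background on all 12 arrays with no overlap between days, the largest change in each direction per list, the 6 largest of all genes, the 2 largest bounds per class and direction, and 8 fixed genes, which came to 148 genes. Some of them are not reported here. Other genes, and the promoters shown, were chosen after their values were seen. The mean spot signal was not in the files, so the normexp alternative used the median signal. Alternatives were the scaling, background, filter, probe rule, batch block, slide, technical array and each batch left out.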

Additional observations from a re-analysis of the deposited data

Results flagged for a closer look

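Among 296 groups of 6 arrays of the 148 named genes, 12 held 1 array far from the other 5 by Dixon's test, and chance alone marks about 1 in 20 groups. Array 1 of batch 3 of day 22 was the far one in 4 cell cycle genes. It was at -4.18 in E2f7, at -4.71 in E2f8, at -0.91 in Mki67 and at -0.63 in Rrm2, where the lowest of the others were at -2.93, -2.71, 1.04 and 0.86. Array 1 of batch 1 of day 22 was at -1.49 in Islr2, and array 2 of the same batch at -1.79 in Bcl6b.

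The other 6 lay on day 0. Array 1 of batch 2 was at -0.50 in Aco1 and at -2.41 in Nmnat2. Array 1 of batch 3 was at -5.12 in Lrp2 and at -2.32 in Uts2b, and array 2 of that batch at -5.34 in Robo4. Array 2 of batch 1 was at -3.31 in Spock3. No cause was tested.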

How the results depend on the processing

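By the placement of the array files 3061 genes were higher and 4060 lower, and by the value table's placement 2311 and 2920. With batch number as a replicate block these counts were 3117 and 4096 in the first placement and 2428 and 3046 in the other, and among the named genes the block changed the calls of Hoxb3, Pck2 and Sox10 alone. Fewer arrays gave fewer calls: 1353 higher and 1040 lower on slide 1 alone, 970 and 1116 on slide 2, 1512 and 1866 with the first technical arrays, and 1987 and 2397 with the second. The higher share of calls was 46.5% on slide 2 and 43.0% in the main fit. On slide 1 more genes were called higher than lower, against the direction of the main fit. That slide holds arrays of batch 1 alone for day 22. Leaving out each batch of day 0 or day 22 in turn gave 2494 to 3124 higher and 3225 to 4106 lower. By the value table's placement, an alternative added after seeing the data, this gave 1748 to 2358 higher and 1996 to 3022 lower, with the fewest calls without batch 3 of day 0. Without array 1 of batch 3 of day 22, also added, it was 3036 and 4086. Of 144 named genes called with the array files, 91 stayed called on slide 2 and 143 with the value table's batches, and 144 with either of the median and quantile scalings. Mbp turned to -0.41 with the mean of its probes, and no other of these 144 genes turned under any alternative. Named genes that were not called, such as Egr2 and Jun, were left out of this count. Of 797 list members and markers that rose or fell, 0 turned under the scalings, normexp or the authors' values, and 2 with the mean of probes, Mbp and Srebf2. Without single batches Ccl28, Tnfrsf19 and Pla2g2d lost their calls by the array files' placement, and from 8 to 24 of the 144 named genes lost theirs by the value table's, most of them without batch 3 of day 0. Among these were Scarb1, Mvk and Tfrc, at adjusted p = 0.0667, 0.0566 and 0.0728 without batch 3 of day 0, Hoxb3 at 0.11 without batch 2 of day 0, and Pck2 at 0.102 without batch 2 of day 22. Precision is limited by 3 batches a day.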
